A study of Mus musculus with 6 samples.

Results

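Tuft cell markers were examined in mouse intestinal crypts, the glands at the base of the villi where stem cells renew the epithelium. The markers were 9 genes, Dclk1, Trpm5, Pou2f3, Gfi1b, Ptgs1, Alox5ap, Avil, Sh2d6 and Rgs13, chosen by name. A gene was used where the array had a probe set annotated with that single symbol, and 8 of the 9 had one, among 19938 genes measured. Ptgs1, the cyclooxygenase of the prostaglandin pathway, had no array value used here and enters only the promoter search. Crypt RNA came from 3 YAP Tg mice and 3 control mice, with 1 Affymetrix array for each mouse. By the series title the YAP Tg mice carry YAP-S127A, a form of the coactivator YAP that escapes inhibition by the Hippo kinases, together with Villin-rtTA, which places a doxycycline-controlled activator under a promoter of the intestinal epithelium. The design text says that mice received doxycycline for 2 days. The labels call the other mice control and do not give their transgenes, whether they received doxycycline, or the age, sex or strain of any mouse, so the drug and the transgene cannot be told apart as sources of a difference. Every change below is YAP Tg minus control on the log2 scale, where 1 unit is a doubling of the signal.

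Tuft cells are rare secretory cells of the gut epithelium that sense the contents of the lumen. They carry taste-type receptors whose G proteins and phospholipase C release calcium and open the cation channel TRPM5, and they release interleukin-25, eicosanoids and acetylcholine. In worm infection interleukin-13 from lymphoid cells drives crypt progenitors to make more of them. Pou2f3 is the transcription factor without which they do not form.

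The arrays of the YAP Tg mice were less alike than those of the controls. Across genes, which are not independent replicates, Pearson's r was 0.978 to 0.989 between YAP Tg arrays and 0.996 to 0.997 between control arrays. YAP Tg 2 was the nearest to the controls (r = 0.972 to 0.975, against 0.945 to 0.950 for YAP Tg 1 and 0.965 to 0.969 for YAP Tg 3) and received the lowest weight, 0.249, when arrays were weighted by their fit. Results are therefore given with and without YAP Tg 2. The probe set of Yap1 stood at 9.17 ± 0.16 in YAP Tg and 9.41 ± 0.09 in control crypts (SD, n = 3 each), a difference that did not pass limma's test (adjusted p = 0.183). It is unknown here if this probe set detects the transgene, so it does not check the labels. The markers were measurable in every mouse. Their lowest log2 signal on any array was 6.98, while the probe sets treated as array controls had medians of 5.03 to 5.33 on YAP Tg arrays and 4.97 to 4.99 on control arrays.

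None of the 8 markers passed limma's test between YAP Tg and control crypts when all 6 arrays were used. The 3 YAP Tg mice stood in the same order for every marker, lowest in YAP Tg 2, between in YAP Tg 1 and highest in YAP Tg 3. For 6 of the 8 markers, at least 1 YAP Tg mouse lay above and at least 1 below all controls, a spread that 18.9% of all genes showed. At the threshold used, 0 of 8 markers were higher and 0 were lower (adjusted p below 0.05), where 7.50% of all genes were called higher and 6.70% lower, and 0 of 8 had an unadjusted p below 0.05. Limma's adjusted p ran from 0.304 for Dclk1 to 1.0 for Alox5ap. The median log2 change of the markers was -0.004, beside 0.029 over all genes, and 3 of the 8 changes were positive. In bulk RNA, a difference in the number of tuft cells and a difference in RNA per tuft cell cannot be told apart.

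**Figure D1:**
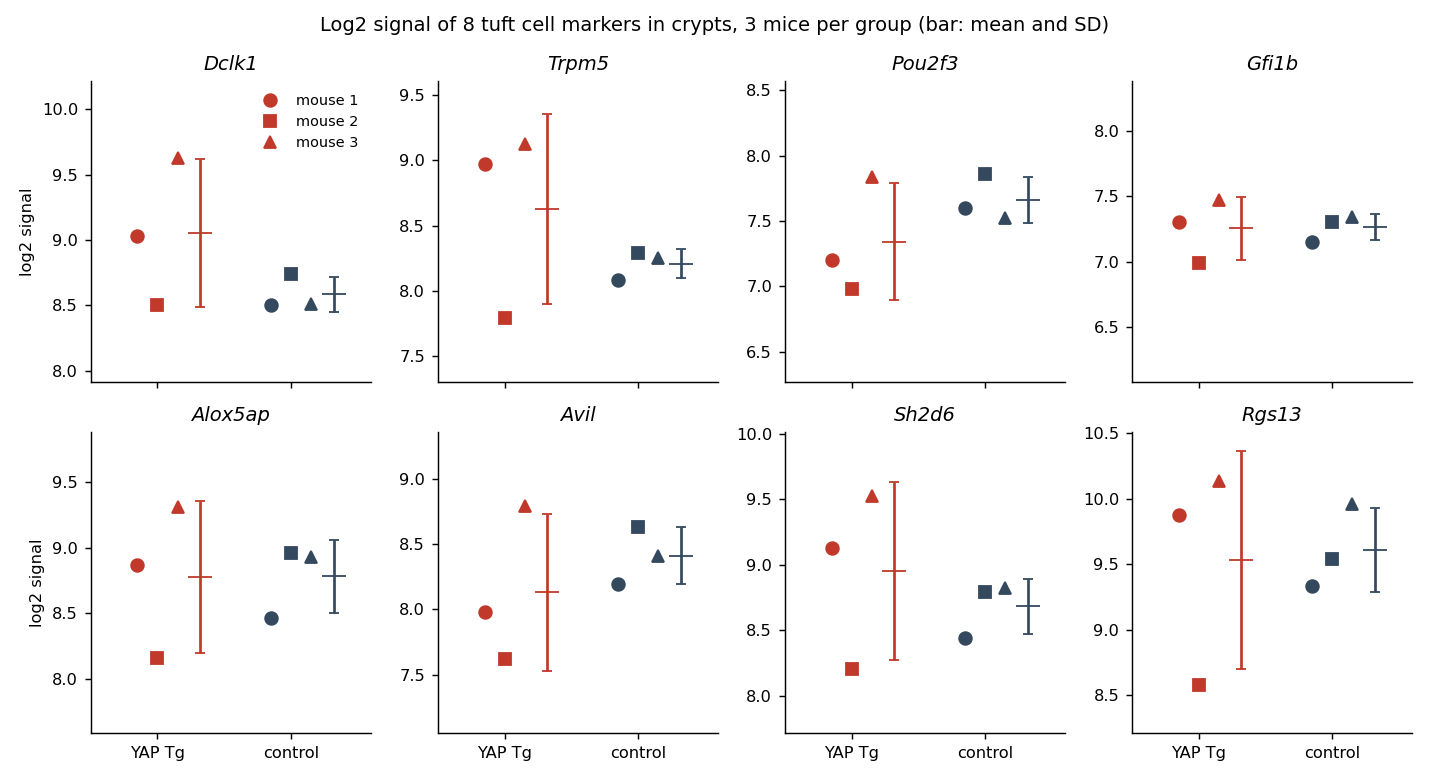
Log2 signal (vertical axes, a separate range of equal height for each gene) of the 8 tuft cell markers in the 3 YAP Tg (red) and 3 control (dark) mice; symbols mark the mouse number, and the bars give the mean and SD of each group. In every panel YAP Tg 2 (square) is the lowest red point and YAP Tg 3 (triangle) the highest, and the 3 controls lie within a narrower band.

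The sensing pathway was represented by Trpm5, the channel that turns taste-type signals into depolarisation. Its log2 signal was 8.97, 7.79 and 9.12 in YAP Tg mice 1, 2 and 3, against 8.08, 8.29 and 8.25 in control mice 1, 2 and 3. YAP Tg 1 and 3 were above every control and YAP Tg 2 was below every control. The log2 change was 0.42 (SE 0.35, 95% interval -0.42 to 1.26, limma's adjusted p = 0.459). Without YAP Tg 2 it was 0.84 (SE 0.10, interval 0.60 to 1.08, limma's adjusted p = 0.00316), or 1.79-fold. Leaving out the lowest YAP Tg mouse raises the change by construction.

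The transcription factors did not share the high values of YAP Tg 1. Pou2f3, which specifies the lineage, stood at 7.20, 6.98 and 7.84 in the YAP Tg mice and 7.60, 7.86 and 7.52 in the controls. YAP Tg 1 and 2 were below every control, and YAP Tg 3 lay within the control range, just under control 2. The log2 change of -0.32 had a 95% interval from -0.88 to 0.24 (limma's adjusted p = 0.394). Gfi1b, a zinc finger repressor also known from red cell and platelet precursors, varied least, with 7.30, 6.99 and 7.47 in the YAP Tg mice and 7.15, 7.30 and 7.34 in the controls. Its change of -0.01 had the narrowest interval of the 8, from -0.33 to 0.32 (limma's adjusted p = 0.977).

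Dclk1 and Avil belong to the cytoskeleton. Dclk1, a microtubule-associated kinase and the most used tuft cell marker of the mouse gut, had 9.03, 8.50 and 9.63 in the YAP Tg mice and 8.50, 8.74 and 8.51 in the controls. YAP Tg 1 and 3 exceeded every control, and YAP Tg 2 equalled the lowest control. Its change was 0.47 (SE 0.28, interval -0.20 to 1.14, limma's adjusted p = 0.304) with all mice and 0.75 (SE 0.19, interval 0.26 to 1.24, limma's adjusted p = 0.0355) without YAP Tg 2. Avil, which encodes the actin-binding protein advillin of the tuft, went with Pou2f3 in its array pattern. It stood at 7.98, 7.62 and 8.79 in the YAP Tg mice and 8.19, 8.63 and 8.41 in the controls, so YAP Tg 1 and 2 were below every control and YAP Tg 3 above. The change of -0.28 (interval -1.01 to 0.45, limma's adjusted p = 0.575) was -0.02 without YAP Tg 2.

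Alox5ap, the protein that presents arachidonic acid to 5-lipoxygenase for leukotriene synthesis, had 8.87, 8.16 and 9.31 in the YAP Tg mice and 8.46, 8.96 and 8.93 in the controls. The group means were equal at 8.78, with an SD of 0.58 in YAP Tg and 0.28 in control crypts. The interval of its change, -0.74 to 0.74, leaves room for a change of either sign.

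Sh2d6 and Rgs13 are signalling proteins. Sh2d6, an SH2-domain adaptor, had 9.13, 8.20 and 9.53 in the YAP Tg mice and 8.44, 8.79 and 8.82 in the controls. As for Trpm5, YAP Tg 1 and 3 were above all controls and YAP Tg 2 below them. The change was 0.27 (SE 0.33, interval -0.54 to 1.08, limma's adjusted p = 0.621) with all mice and 0.65 (SE 0.17, interval 0.22 to 1.08, limma's adjusted p = 0.0376) without YAP Tg 2. Rgs13, a regulator that shortens G protein signalling, had the widest spread, with 9.88, 8.58 and 10.14 in the YAP Tg mice and 9.33, 9.54 and 9.96 in the controls. Its change of -0.08 had an interval from -1.09 to 0.93 (limma's adjusted p = 0.916).

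Without YAP Tg 2, then, 3 of 8 markers were called higher and 0 lower by limma, where 14.1% of all genes were called higher and 19.5% lower in that fit. The 3 were Trpm5, Dclk1 and Sh2d6. The median log2 change of the markers was 0.35 in that fit, beside 0.051 over all genes. With any other single mouse left out, 0 of 8 were called. Taking out a mouse because it stands apart narrows the spread by construction. YAP Tg 2 was the lowest YAP Tg mouse for 8 of 8 markers, so leaving it out also raises every change. No label marks YAP Tg 2 as different from the other YAP Tg mice.

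**Figure D2:**
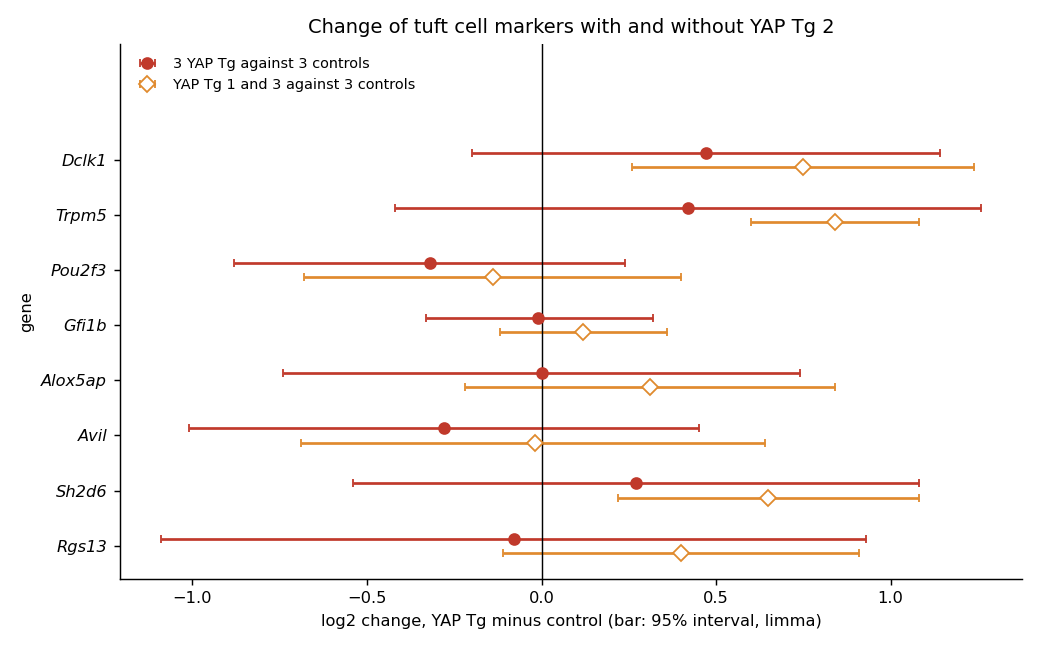
Log2 change of each marker (horizontal axis, YAP Tg minus control) with its 95% interval from limma, for all 3 YAP Tg mice (filled circles) and for YAP Tg 1 and 3 alone (open diamonds), in each case against 3 controls. With all mice every interval crosses 0, and without YAP Tg 2 those of Dclk1 (0.26 to 1.24), Trpm5 (0.60 to 1.08) and Sh2d6 (0.22 to 1.08) lie above it.

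Array by array, the markers lay on one side of the control mean in YAP Tg 2, YAP Tg 3 and control 1. Averaged over the 8 markers, the deviation from the control mean was 0.14 ± 0.43 in YAP Tg 1, -0.55 ± 0.30 in YAP Tg 2 and 0.58 ± 0.33 in YAP Tg 3 (SD over the markers). In controls 1, 2 and 3 it was -0.18 ± 0.10, 0.12 ± 0.10 and 0.07 ± 0.15. YAP Tg 2 was below the control mean for 8 of 8 markers and YAP Tg 3 above it for 8 of 8, while YAP Tg 1 was above it for 6. Control 1 was above it for 0 of 8, control 2 for 7 and control 3 for 5.

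The order of the YAP Tg mice, 2 below 1 below 3, held for 8 of 8 markers and for 23.1% of all genes. The lowest YAP Tg mouse was YAP Tg 2 for 44.0% of all genes. In lists described below this held for 7 of 8 enterocyte, 7 of 11 enteroendocrine and 4 of 6 goblet cell genes. It held for 9 of 11 mast cell, 4 of 5 platelet and red cell precursor and 6 of 8 muscle and stromal genes. It held for 1 of 6 Paneth cell, 0 of 7 stem cell and 3 of 9 type 2 genes. It held for 2 of 10 T lymphocyte, 2 of 6 B lymphocyte and 3 of 10 macrophage genes. YAP Tg 2 was the lowest of all 6 arrays for 7 of 8 markers (16.9% of all genes), with Dclk1 tied with control 1. YAP Tg 3 was the highest of all 6 for 7 of 8 (25.4% of all genes), with Pou2f3 the exception, and was above every control for those 7 (45.3% of all genes). The gap between these mice was large. YAP Tg 3 exceeded YAP Tg 2 at least 2-fold for 6 of 8 markers, which 0.858% of all genes did. The gap ran from 1.39-fold for Gfi1b and 1.82-fold for Pou2f3 to 2.52-fold for Trpm5 and 2.95-fold for Rgs13, and its median was 1.16 on the log2 scale, beside 0.051 over all genes. These patterns were described after the values were seen, and the markers share the same 6 arrays, so the 8 are not independent of one another.

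The controls showed a weaker order of their own. Control 1 was the lowest of the 3 controls for 7 of 8 markers, which held for 31.4% of all genes, and control 2 was the highest for 5 of 8 (29.6% of all genes). The median SD of a marker was 0.59 among YAP Tg mice and 0.194 among controls, beside 0.159 and 0.082 over all genes. The SD was larger among YAP Tg mice for 8 of 8 markers and for 75.1% of all genes.

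Within the set, the markers did not all go the same way in YAP Tg 1. Trpm5, Dclk1 and Sh2d6 were above every control there (40.7% of all genes were), whereas Pou2f3 and Avil were below every control (35.5% of all genes were). These counts, 3 and 2 of 8, did not exceed the shares of all genes, so they do not set the markers apart. Over the 6 arrays Pearson's r was 0.966 between Trpm5 and Sh2d6, 0.907 between Dclk1 and Trpm5 and 0.959 between Pou2f3 and Avil. It was only 0.350 between Trpm5 and Pou2f3, the lowest of the 28 pairs. The highest was 0.991, between Gfi1b and Alox5ap, and the median was 0.821. These values describe 6 arrays that share a normalization.

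RefSeq promoter windows, 250 bases before to 50 after an annotated start in GRCm38.p6, were searched because the measured markers kept a common order among the YAP Tg mice. Of the 9 genes, 7 had a window (Ptgs1, which had no array value, among them), and Dclk1 had windows at a pair of starts, which made 8 windows. They were searched on both strands for GGAATG, the core bound by the TEAD partners of YAP, for AAATCA, a core of sites bound by Gfi1 and Gfi1b, and for the octamer bound by Pou2f3 and its relatives, ATGCAAAT. GGAATG was found in 1 of 8 windows, that of Sh2d6, and in 14.7% of 32851 windows of the same length genome-wide. AAATCA was found in 3 of 8, against 14.0% of all windows, and the octamer in 0 of 8, against 1.74%. The motifs do not overlap one another in these windows. The 4 windows with a match follow, in lower case from 5′ to 3′ along the gene, with the match in capitals.
Sh2d6, chr6:72519987-72520286, minus strand, GGAATG starting 92 bases before the start: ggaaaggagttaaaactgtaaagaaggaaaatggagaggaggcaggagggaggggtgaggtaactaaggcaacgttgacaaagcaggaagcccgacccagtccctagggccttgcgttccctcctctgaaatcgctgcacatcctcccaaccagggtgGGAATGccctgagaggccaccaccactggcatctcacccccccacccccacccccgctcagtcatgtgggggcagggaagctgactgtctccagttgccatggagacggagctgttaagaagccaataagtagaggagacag
Dclk1, chr3:55461478-55461777, plus strand, the downstream start, AAATCA 147 bases before the start: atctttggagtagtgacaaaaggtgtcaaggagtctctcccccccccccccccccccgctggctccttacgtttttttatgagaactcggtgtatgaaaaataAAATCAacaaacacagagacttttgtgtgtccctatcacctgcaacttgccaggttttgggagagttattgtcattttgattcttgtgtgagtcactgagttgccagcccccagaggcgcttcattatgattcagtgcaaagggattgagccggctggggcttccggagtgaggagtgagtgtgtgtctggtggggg
Gfi1b, chr2:28621933-28622232, minus strand, AAATCA 34 bases before the start: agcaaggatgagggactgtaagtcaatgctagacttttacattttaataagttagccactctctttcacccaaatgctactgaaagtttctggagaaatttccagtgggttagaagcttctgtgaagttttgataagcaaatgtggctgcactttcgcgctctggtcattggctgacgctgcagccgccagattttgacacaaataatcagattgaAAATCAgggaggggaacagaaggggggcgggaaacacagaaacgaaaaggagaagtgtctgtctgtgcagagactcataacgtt
Avil, chr10:127000459-127000758, plus strand, AAATCA 188 bases before the start: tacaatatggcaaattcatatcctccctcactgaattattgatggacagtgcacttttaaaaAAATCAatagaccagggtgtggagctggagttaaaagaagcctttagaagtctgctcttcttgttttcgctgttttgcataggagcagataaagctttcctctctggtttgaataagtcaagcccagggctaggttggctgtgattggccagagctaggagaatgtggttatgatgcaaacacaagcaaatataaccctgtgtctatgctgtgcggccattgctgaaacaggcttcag
All 4 matches read along the gene's own strand. They are matches of letters, and no binding was measured here. Like the downstream Dclk1 window, those of Sh2d6 and Avil lay inside the annotated spans of their genes, chr6:72513641-72534206 and chr10:127000065-127020994. Trpm5, Rgs13 and Ptgs1 had none of the 3 motifs in their windows. A link between the 4 matches and the array values was not tested.

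Other tuft cell genes, in lists that hold none of the 9, were also mostly lowest in YAP Tg 2 among the YAP Tg mice. Of 47 measured genes of taste signalling, eicosanoid synthesis and other tuft cell functions, 4 rose and 2 fell by limma with all mice, and 17 rose and 2 fell without YAP Tg 2. Over all genes 7.50% rose and 6.70% fell with all mice, and 14.1% and 19.5% without YAP Tg 2, so with all mice the counts of 4 and 2 were near the shares of all genes. Rac2 and Inpp5d, which blood cells also make, rose in both fits. The part of blood cells in these counts was not tested. The median log2 change of the 47 genes was 0.13 with all mice and 0.25 without YAP Tg 2. YAP Tg 2 was the lowest of the YAP Tg mice for 39 of the 47, which held for 44.0% of all genes. It was below every control for 22 of them (33.7% of all genes), and both YAP Tg 1 and 3 were above every control for 24 (31.7% of all genes).

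Of 12 genes of the taste-type pathway, 1 rose and 1 fell, near the shares of all genes (7.50% and 6.70%). Itpr3, the inositol trisphosphate receptor that releases calcium in taste cells, had 10.04, 10.15 and 10.41 in the YAP Tg mice and 9.69, 9.76 and 9.49 in the controls, a rise of 0.55 (SE 0.12, limma's adjusted p = 0.034). Here all 3 YAP Tg mice were above all controls, as 16.5% of all genes were. Sucnr1, the succinate receptor of small intestinal tuft cells, had 4.72, 4.69 and 5.05 in the YAP Tg mice and 5.40, 5.32 and 5.60 in the controls, and fell by 0.62 on the log2 scale (SE 0.13, limma's adjusted p = 0.0274). All its YAP Tg values were below all controls, as 17.0% of all genes were. They lay near or below the medians of the array controls, so the size of this fall is uncertain.

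Of 6 eicosanoid genes, 0 rose and 1 fell (7.50% of all genes rose and 6.70% fell). Pla2g4a, the phospholipase that frees arachidonic acid from membranes, had 6.92, 7.46 and 7.46 in the YAP Tg mice and 8.13, 8.56 and 8.17 in the controls, and fell by 1.01 on the log2 scale (SE 0.19, limma's adjusted p = 0.0201). All its YAP Tg values were below all controls, as 17.0% of all genes were, and YAP Tg 2 was not the lowest here, unlike for Alox5ap. Other cells of the crypt also express it.

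Of the 29 remaining tuft cell genes, 3 rose and 0 fell, near the shares of all genes (7.50% and 6.70%). Krt18, a keratin of simple epithelia that tuft cells make in quantity but other crypt cells make too, had 12.73, 12.65 and 12.75 in the YAP Tg mice and 11.10, 11.32 and 11.13 in the controls, a rise of 1.53 (SE 0.09, limma's adjusted p = 0.000596). The GTPase gene Rac2, active in blood cells and tuft cells, was higher by 0.76 (SE 0.10, adjusted p = 0.00643 by limma). Inpp5d, the inositol phosphatase SHIP1 of the same cells, was higher by 0.77 (SE 0.11, adjusted p = 0.00744 by limma). Among these genes the YAP Tg mice differed little, and YAP Tg 2 was high like the others. All 3 YAP Tg mice were above all controls for each, as 16.5% of all genes were. Rac2 had 10.37, 10.53 and 10.60 in the YAP Tg mice and 9.73, 9.61 and 9.87 in the controls.

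**Figure D3:**
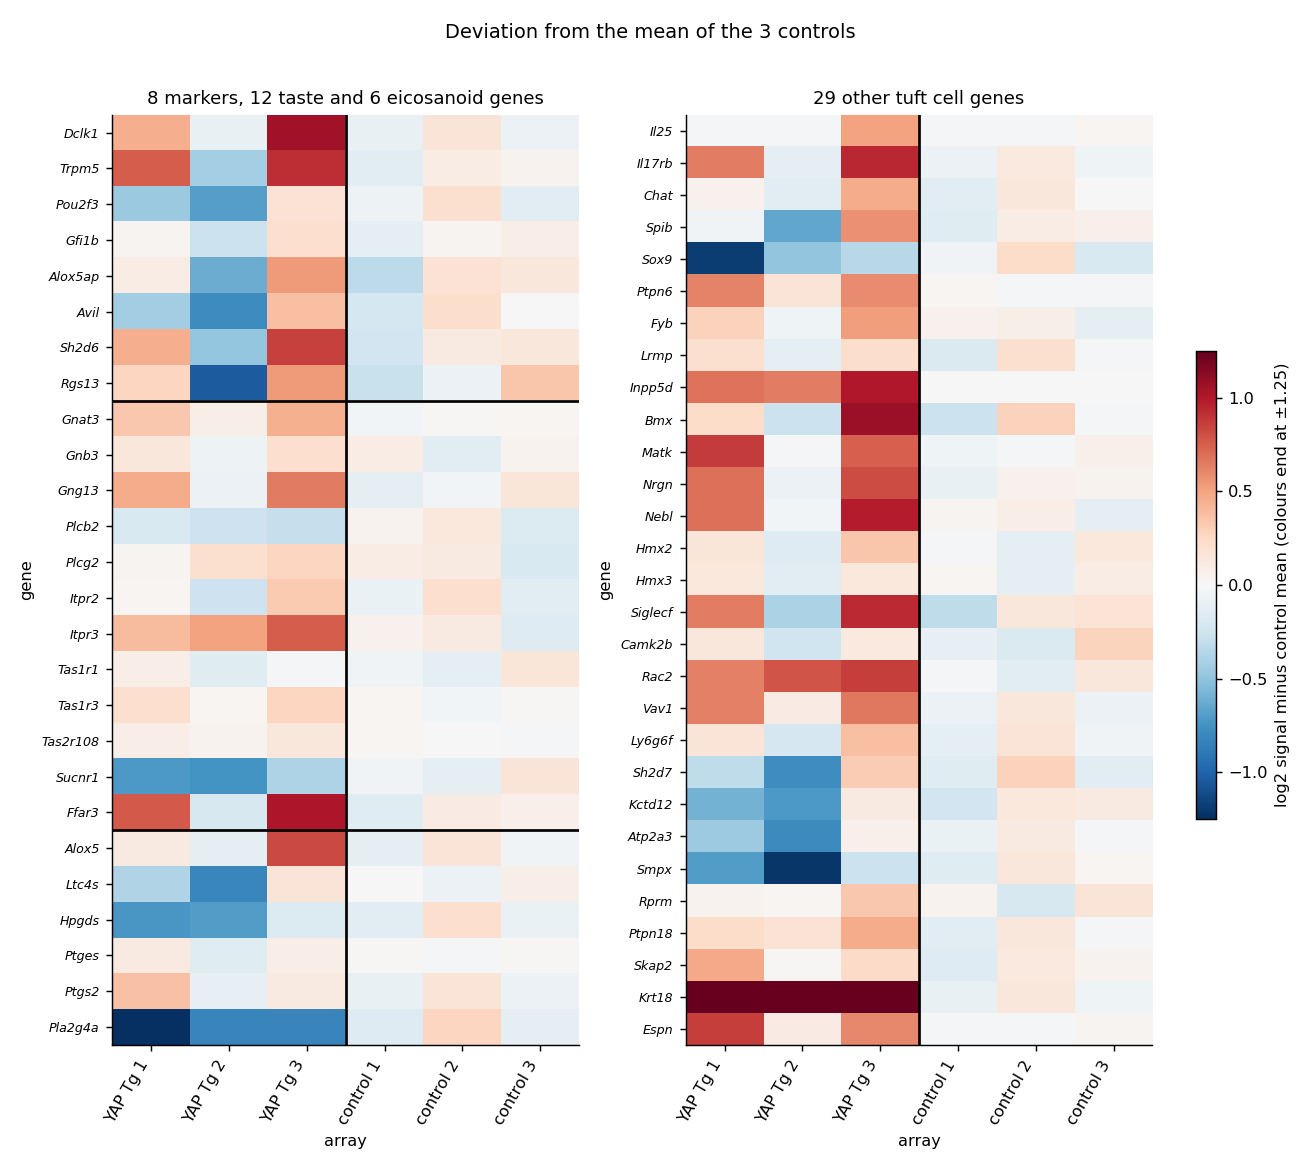
Deviation of the log2 signal from the mean of the 3 controls (colour, red above and blue below) for the 8 markers, 12 taste signalling, 6 eicosanoid and 29 other tuft cell genes (rows) on each array (columns, YAP Tg left of the line). The column of YAP Tg 2 is paler or bluer than those of YAP Tg 1 and 3 for most rows, and Krt18, Rac2, Inpp5d and Itpr3 are red in all 3.

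Genes with the array pattern closest to the markers were ranked by Pearson's r over the 6 arrays with the mean deviation of the 8 markers. Among 3003 other genes with a signal above the median gene and a range of at least 1 on the log2 scale, 10 (0.333%) had an r of 0.9 or more. The 6 highest were Spib (r = 0.979), Strip2 (0.971), Ifi27l2b (0.940), Rdh9 (0.932), Siglecf (0.925) and S100g (0.909). Spib, an ETS transcription factor, and Siglecf, a sialic acid-binding lectin that marks tuft cells and eosinophils, were in the list of other tuft cell genes. Spib had 8.85, 8.25 and 9.46 in the YAP Tg mice and 8.75, 8.98 and 8.96 in the controls. Siglecf had 9.14, 8.10 and 9.43 in the YAP Tg mice and 8.19, 8.65 and 8.68 in the controls. The others were not in any tuft cell list used here. S100g, the vitamin D-dependent calcium-binding protein of absorptive cells, had 8.70, 7.18 and 9.65 in the YAP Tg mice and 8.60, 9.48 and 8.80 in the controls, a 5.51-fold gap between YAP Tg 3 and 2. With 6 arrays a high r is a description of these mice. The kinase gene Bmx (0.908), in the list of other tuft cell genes, was among the remaining 4 of the 10. Without the limits on signal and range, Chat, which makes acetylcholine (0.911), and Ly6g6f (0.948) also reached 0.9 among the 47 other tuft cell genes.

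The signals that expand tuft cells in type 2 immunity were examined next. Of 9 genes of this circuit, 3 rose and 0 fell (7.50% of all genes rose and 6.70% fell). Il33, the epithelial alarmin, had 11.78, 11.80 and 12.23 in the YAP Tg mice and 9.17, 9.08 and 9.06 in the controls, a rise of 2.84 (SE 0.13, limma's adjusted p = 0.000482). Il4ra, the receptor chain shared by interleukin-4 and interleukin-13, had 10.03, 10.11 and 9.93 in the YAP Tg mice and 8.74, 8.99 and 8.68 in the controls, a rise of 1.22 (SE 0.10, limma's adjusted p = 0.00162). Il13ra1, its partner in the interleukin-13 receptor, rose by 0.57 (SE 0.10, limma's adjusted p = 0.017). These 3 were high in all YAP Tg mice, including YAP Tg 2. The cytokine Il13 differed by 0.10 and Il25, the tuft cell's own signal, by 0.16. Il25 stood at 6.08, 6.08 and 6.59 in the YAP Tg mice and 6.08, 6.08 and 6.11 in the controls, so YAP Tg 3 was the highest array and the other 5 lay between 6.08 and 6.11.

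Other secretory and crypt lineages are set beside the markers by their median deviation from the control mean, and their counts past limma's test are to be read against 7.50% of all genes that rose and 6.70% that fell. For 11 enteroendocrine genes it was -0.30, -0.28 and -0.08 in YAP Tg 1, 2 and 3, and 1 rose and 2 fell by limma. For 6 goblet cell genes it was -0.66, -0.77 and -0.12, and 2 fell. For 6 Paneth cell genes it was -0.64, -0.50 and -0.46, and 3 fell. Absorptive enterocytes had medians of -0.04, -0.30 and 0.10 over 8 genes, of which 1 rose and 2 fell. For 7 Lgr5 stem cell genes the median was -2.28, -1.57 and -1.62, and 7 of 7 fell. Olfm4, a crypt base stem cell marker and one of these, had 8.52, 10.23 and 10.57 log2 units in YAP Tg 1, 2 and 3, against 12.87 to 13.02 in the 3 controls. Lyz1, the lysozyme of Paneth cells, had 12.90, 13.39 and 13.14 in YAP Tg mice, against 13.68, 13.31 and 13.62 in control mice. Both markers of the labelled crypt tissue were well above the array controls on every array. The corresponding medians of the tuft cell markers were 0.18, -0.55 and 0.53. Differences between these lists were not tested.

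**Figure D4:**
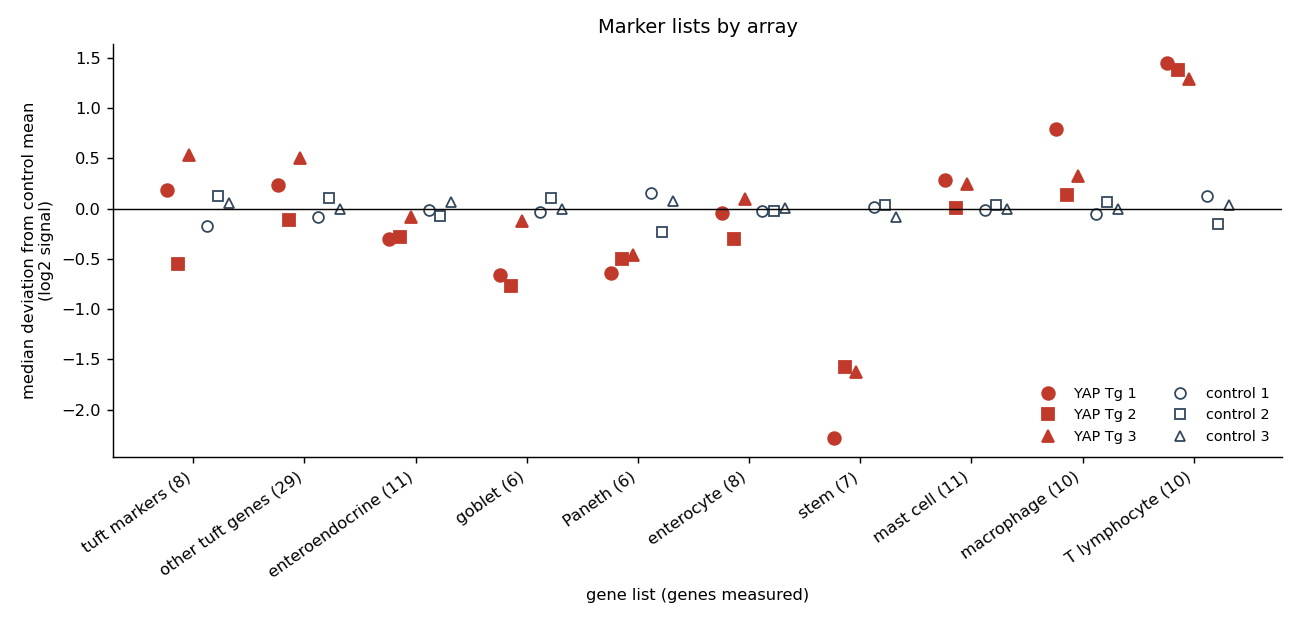
Median deviation of the log2 signal from the control mean (vertical axis) over the measured genes of each marker list, for the 3 YAP Tg (filled red) and 3 control (open) mice. The YAP Tg values of the tuft cell markers fall on both sides of the controls (-0.55 in YAP Tg 2 and 0.53 in YAP Tg 3), as those of the other tuft cell and enterocyte genes also do, while all YAP Tg values lie below the controls for stem cell genes and above them for T lymphocyte genes.

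Several markers are also made by blood cells: Alox5ap by macrophages, Rgs13 by mast cells and germinal centre B cells, and Gfi1b by precursors of platelets and red cells. Over all genes 7.50% rose and 6.70% fell by limma. Of 10 T lymphocyte genes 9 rose, and their summed signal (log2 of the sum) was 14.57 to 14.88 in YAP Tg and 13.21 to 13.48 in control crypts. Among the YAP Tg mice this sum was lowest in YAP Tg 3, where the tuft cell markers were highest. Of 10 macrophage genes 4 rose and 1 fell, with summed signals of 10.39 to 10.69 and 10.38 to 10.68, and YAP Tg 3 was the lowest YAP Tg mouse by this sum, in which Lyz2 had the highest signal on every array. By the median deviation, 0.79, 0.14 and 0.32 in YAP Tg 1, 2 and 3 and -0.05 to 0.07 in controls, YAP Tg 2 was the lowest YAP Tg mouse, as for the tuft cell markers, and all YAP Tg mice were above the controls. Of 11 mast cell genes 0 passed limma's test, with sums of 10.20 to 10.94 and 9.76 to 10.45. The sum was 10.94, 10.20 and 10.56 in YAP Tg 1, 2 and 3, so YAP Tg 2 was the lowest, as for the tuft cell markers. The mast cell receptor genes Fcer1a and Ms4a2 were below 5 in log2 signal on every array, at the level of the array controls. Of 6 B lymphocyte genes 0 passed, with sums of 9.12 to 9.68 and 8.83 to 8.93, and YAP Tg 3 was the lowest YAP Tg mouse. Of 5 genes of platelet and red cell precursors 0 passed, with sums of 7.90 to 8.21 and 7.94 to 8.07. Their sum was 8.21, 7.90 and 8.12 in YAP Tg 1, 2 and 3, so YAP Tg 2 was the lowest of all 6 arrays. Pf4 and Ppbp among these 5 genes were at the level of the array controls. Of 8 smooth muscle and stromal genes 0 passed, with sums of 9.25 to 9.47 and 9.19 to 9.33. The sum was 9.47, 9.25 and 9.44 in YAP Tg 1, 2 and 3, so YAP Tg 2 was the lowest YAP Tg mouse. The part of these cells in the values of the markers and of the other tuft cell genes was not tested.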

How the data were processed

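Total RNA of isolated, uncultured crypts was labelled with biotin and hybridised to 1 Affymetrix array per mouse, and the groups, 3 YAP Tg and 3 control, were taken from the sample titles. The authors deposited log2 signals for 35556 probe sets, which the submitters' processing notes credit to Affymetrix Expression Console 1.1. That the deposited values are log2 was inferred from their range; how background was corrected, arrays normalized and probes summarised was not given. Scaling arrays to a common level would conceal a shift shared by all genes. Probe sets numbered below the first annotated one (6617) were treated as array controls and dropped. The 28939 others comprised 21789 annotated with 1 symbol, 1621 with several and 5529 absent from the annotation. The brightest probe set by mean over the 6 arrays stood for each of 19938 genes, and each of the 8 markers had only 1. By Entrez identifier 21698 probe sets matched the RefSeq table of GRCm38.p6, which changed 0 symbols. Fyb1 and Irag2 were read as Fyb and Lrmp.

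Differences were fitted on the log2 values with lmFit and eBayes of limma 3.58.1 (R 4.3.3), two-sided and without covariates. Benjamini-Hochberg adjustment covered all genes, and calls were made below 0.05. The method was tested on simulated data with independent genes and the same spread in both groups. That test did not cover the wider spread among the YAP Tg mice. Each title was taken as a separate mouse, and p-values measure only the spread between these samples. All 9 markers are named, with up to 4 genes past the test or 2 others from each other tuft cell and type 2 list and the 6 most alike. Sight of the values came before the choice to name Il13, Il25, Olfm4, Lyz1, Chat, Bmx, Ly6g6f, blood cell genes and those in the additional observations. The members and lists were chosen with earlier results of these data known. The number of arrays limits the precision. Alternatives were leaving out each mouse, median centring, quantile normalization, blocking on mouse number, only genes above the median signal, array weights, a robust trended prior, averaged probe sets and thresholds of 0.1 and 0.01.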

Additional observations from a re-analysis of the deposited data

How the results depend on the processing

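The count of markers called higher, 0 of 8 with all arrays, was 0 to 3 with 1 mouse left out, the 3 without YAP Tg 2, and 2 (Dclk1 and Trpm5) with array weights, which gave YAP Tg 2 little weight. It was 0 under the other alternatives, and the count called lower was 0 under each alternative run. The median log2 change of the markers ran from -0.19 to 0.35 with 1 mouse left out. Over all genes, 1495 higher and 1336 lower became 668 to 2802 and 369 to 3889 with 1 mouse left out, 2459 and 3481 with array weights and 661 and 386 at a threshold of 0.01, and 2101 were lower at 0.1. The titles do not say whether mouse numbers pair the mice. Deviations of same-numbered mice correlated at -0.131, 0.012 and 0.098, and those of differently numbered mice at -0.135 to 0.12. Correlations this alike cannot settle whether the numbers pair the mice. With the number as a replicate block 975 genes were higher and 727 lower, and 0 of 8 markers were called.

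Of 120 checks of single markers under the alternatives, 100 kept the direction and the side of the threshold, 5 passed it, and 15 turned in sign with none of them called. Some of the 100 could not move in value. The thresholds of 0.1 and 0.01 reuse the main fit, and averaging probe sets leaves markers with a single probe set unchanged. Gfi1b was 0.08 under quantile normalization and 0.12 with array weights, and -0.12 to 0.12 with 1 mouse left out. Alox5ap was 0.10, 0.30 and -0.27 to 0.31 under the same alternatives. With array weights Avil was 0.03 and Rgs13 0.31. With 1 mouse left out Rgs13 was -0.38 to 0.40 and Sh2d6 -0.01 to 0.65. Limma's adjusted p over the alternatives was 0.00316 to 0.81 for Trpm5, 0.0355 to 0.606 for Dclk1 and 0.0376 to 0.986 for Sh2d6. The median change of all genes was -0.10 among genes above the median signal and within 0.051 of 0 otherwise.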

Other observations

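Retnlb, an antimicrobial and type 2-responsive product of goblet cells, had the widest spread among the type 2 genes, with 7.94, 6.27 and 10.46 in the YAP Tg mice and 6.82, 9.71 and 8.50 in the controls, and was named after its values were seen. Its Pearson's r with the mean deviation of the tuft cell markers was 0.908 over the 6 arrays. YAP Tg 2 was again the lowest mouse and YAP Tg 3 the highest, and control 1 was the lowest control. The groups overlapped, and the log2 change of -0.12 did not pass limma's test (adjusted p = 0.957).

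The mucosal mast cell proteases Mcpt1 and Mcpt2, also named after their values were seen, were lowest in control 1, and YAP Tg 3 was above every control but below YAP Tg 1. Mcpt2 had 9.76, 8.47 and 8.90 in the YAP Tg mice and 6.85, 8.71 and 7.84 in the controls. Mcpt1 had 9.06, 8.10 and 8.58 in the YAP Tg mice and 6.99, 8.39 and 7.78 in the controls. Neither passed limma's test (adjusted p = 0.176 and 0.204).

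Some tuft cell genes were low in YAP Tg 1 and 2 and closer to the controls in YAP Tg 3 without passing limma's test. For Smpx and Hpgds all 3 YAP Tg mice were below all controls, as 17.0% of all genes were. Smpx had 5.76, 5.24 and 6.20 in the YAP Tg mice and 6.31, 6.60 and 6.48 in the controls (adjusted p = 0.102). Hpgds, the prostaglandin D synthase, had 6.11, 6.14 and 6.67 in the YAP Tg mice and 6.71, 7.05 and 6.77 in the controls (adjusted p = 0.106). Ffar3, a receptor for short-chain fatty acids, followed Trpm5 instead, with 7.37, 6.40 and 7.61 in the YAP Tg mice and 6.45, 6.70 and 6.66 in the controls, and its change of 0.52 (adjusted p = 0.305) was 0.89 without YAP Tg 2 (adjusted p = 0.00445).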
